A study of Mus musculus with 6 samples.

Results

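The windows described here are stretches of 1 kb on chromosomes 1 to 19 of the mouse genome (NCBIM37, mm9) in which reads of unprecipitated chromatin piled up. A window was kept when its reads, placed by their midpoint, reached 5 times the mean of the windows with any read in both the FC input and the CON input library. The means were 19.3 and 14.8 reads, so that at least 97 FC and 75 CON input reads were needed. This held for 350 of 2472353 windows, and 606 and 450 windows passed in the FC input and in the CON input alone. The windows were thus chosen by their FC and CON input reads, and their input density and their ratios to input are descriptions. The reads of both immunoprecipitations, and the ratio of one to the other, were not used by the rule.

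The study asked where lysine 5 of histone H4 (H4K5) is acetylated in the hippocampus after fear learning, by ChIP-Seq in mice that the labels give as C57/BL6 and 6 months old, and the methods as adult C57Bl6/J males. FC mice went through contextual fear conditioning, in which a foot shock was given in a new chamber, and CON mice were handled alike and met the context without a shock. From each group came 1 library of chromatin precipitated with an antibody to acetylated H4K5 (H4K5ac-ChIP; Millipore 07-327), 1 of a mock precipitation with IgG (IgG-IP) and 1 of input. The methods describe several hippocampal samples per group that were cross-linked singly, and barcoded libraries that were pooled before sequencing. The reads in the files were not split by animal. The 6 libraries held 14549689 to 45673239 aligned reads. With 1 library per group and antibody there is no replicate spread and no test. The 95% intervals are exact binomial or Poisson intervals that cover counting error only, and they compare libraries, not conditions. As a check of the tissue, the median log2 ratio of H4K5ac-ChIP over input in gene bodies was 0.32 in FC and 0.55 in CON over 8 neuronal genes, and -0.49 and -0.15 over 8 genes of liver, muscle, germ cells, skin and T cells. The ranges of both lists overlapped, from -0.82 to 1.01 and from -1.13 to 0.79 in FC, and from -1.02 to 0.79 and from -0.90 to 1.5 in CON. In CON the lowest neuronal gene, Neurod6, thus lay below the whole other list, and Apoa2, a liver gene, above all neuronal genes. These ends rested on few input reads, 63 for Neurod6 and 11 for Apoa2 in CON. Zbtb20, the highest neuronal gene in both groups, had 78 (FC) and 44 (CON).

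A reference genome holds many repeated sequences in fewer copies than the DNA does. Reads from all copies then align to the few that the assembly holds, and such places stand out in every library, also where nothing was enriched, so that input and IgG-IP serve to recognise them. Mouse centromeres lie at one end of each chromosome and are flanked by long arrays of major satellite, a tandem repeat packed into heterochromatin, where acetylated histones are known to be scarce. Acetylation of H4K5 is known from active chromatin and is read by bromodomain proteins. The number of copies in the DNA of these mice was not measured, and the windows are therefore called by their rule, dense in input.

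The sequences of the windows fell into a few kinds, which were set from the reference sequence and position after the values had been seen. Satellite sequence lay in 58 windows, 74 windows lay in a stretch over Sfi1 on chromosome 11, 71 in a stretch around Hjurp on chromosome 1, 16 in stretches over Sp110, Sp140 and related genes on chromosome 1, 11 in a tandem repeat of 21 bp and 6 in a stretch that includes the pseudogene AY036118 on chromosome 17. The other 114 windows were scattered over 19 chromosomes. The stretches of 234 bp below each carried the most input reads within 1 window of the satellite, the 21-bp repeat, the Sfi1, Hjurp and AY036118 stretches or the scattered windows in Brd3, outside annotated UTRs, on the plus strand of NCBIM37. Capitals mark bases in words of 16 bases that recur, on either strand, in a window dense in input on another chromosome. The satellite sequences are shown because they lie on 3 chromosomes and share long runs. The others show how much or how little of 1 such stretch recurs on another chromosome. Other windows of a kind can share more, as in the Sfi1 stretch, where some windows shared words with chromosomes 5 and 17.
chromosome 2 satellite, chr2:98507208-98507441, in Gm10800: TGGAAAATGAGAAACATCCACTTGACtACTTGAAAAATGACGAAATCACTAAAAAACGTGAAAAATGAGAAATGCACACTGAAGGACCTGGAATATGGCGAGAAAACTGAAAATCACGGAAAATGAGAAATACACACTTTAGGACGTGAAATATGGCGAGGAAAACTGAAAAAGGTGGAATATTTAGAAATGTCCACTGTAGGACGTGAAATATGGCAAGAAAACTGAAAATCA
chromosome 9 satellite, chr9:3025324-3025557, in Gm16869 and Gm10717: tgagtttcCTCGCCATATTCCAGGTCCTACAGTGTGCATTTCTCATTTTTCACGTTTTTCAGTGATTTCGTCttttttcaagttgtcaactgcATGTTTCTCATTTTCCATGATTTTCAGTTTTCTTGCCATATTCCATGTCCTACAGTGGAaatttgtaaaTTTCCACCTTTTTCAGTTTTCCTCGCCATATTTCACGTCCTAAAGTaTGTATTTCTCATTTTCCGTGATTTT
chromosome 9 satellite, mid arm, chr9:35113001-35113234, intergenic: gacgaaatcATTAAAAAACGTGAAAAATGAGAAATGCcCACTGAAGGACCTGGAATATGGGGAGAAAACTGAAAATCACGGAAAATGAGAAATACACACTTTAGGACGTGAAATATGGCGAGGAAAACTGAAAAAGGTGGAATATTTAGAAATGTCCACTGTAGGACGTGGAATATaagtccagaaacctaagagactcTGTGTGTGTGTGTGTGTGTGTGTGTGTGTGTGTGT
chromosome 12 satellite, chr12:3110002-3110235, intergenic: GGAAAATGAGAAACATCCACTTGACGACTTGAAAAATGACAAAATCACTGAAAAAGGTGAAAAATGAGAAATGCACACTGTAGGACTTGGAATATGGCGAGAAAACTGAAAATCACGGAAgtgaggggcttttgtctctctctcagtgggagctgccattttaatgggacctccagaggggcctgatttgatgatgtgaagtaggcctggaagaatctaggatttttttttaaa
21-bp repeat, chr4:3010752-3010985, intergenic: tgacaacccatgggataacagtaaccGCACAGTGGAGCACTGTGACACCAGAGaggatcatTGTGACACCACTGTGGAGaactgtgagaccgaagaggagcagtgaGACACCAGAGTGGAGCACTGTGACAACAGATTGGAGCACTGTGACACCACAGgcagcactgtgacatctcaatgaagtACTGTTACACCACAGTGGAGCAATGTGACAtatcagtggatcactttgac
Brd3 stretch, chr2:27357082-27357315, intron of Brd3: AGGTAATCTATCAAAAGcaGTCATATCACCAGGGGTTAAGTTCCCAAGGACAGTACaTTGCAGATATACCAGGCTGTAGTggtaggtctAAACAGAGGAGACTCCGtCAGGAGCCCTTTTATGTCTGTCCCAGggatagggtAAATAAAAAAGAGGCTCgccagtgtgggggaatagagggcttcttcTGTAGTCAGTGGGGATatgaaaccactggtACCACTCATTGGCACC
AY036118 stretch, chr17:39980232-39980465, intergenic: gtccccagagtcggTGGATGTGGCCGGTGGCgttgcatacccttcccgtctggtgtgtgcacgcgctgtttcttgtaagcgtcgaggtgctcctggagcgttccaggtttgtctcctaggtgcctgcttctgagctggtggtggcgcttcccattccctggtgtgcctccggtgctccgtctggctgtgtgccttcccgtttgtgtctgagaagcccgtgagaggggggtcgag
Sfi1 stretch, chr11:3043340-3043573, in Sfi1: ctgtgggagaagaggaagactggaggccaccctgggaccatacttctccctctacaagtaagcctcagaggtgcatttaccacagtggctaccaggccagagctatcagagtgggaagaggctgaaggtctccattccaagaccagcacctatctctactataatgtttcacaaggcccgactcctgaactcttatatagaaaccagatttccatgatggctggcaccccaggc
Hjurp stretch, chr1:90173008-90173241, in Hjurp: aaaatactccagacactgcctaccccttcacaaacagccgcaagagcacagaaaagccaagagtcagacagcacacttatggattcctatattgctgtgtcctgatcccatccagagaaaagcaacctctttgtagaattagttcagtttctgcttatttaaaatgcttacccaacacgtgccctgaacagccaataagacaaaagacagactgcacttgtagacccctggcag

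In the chromosome 2 sequence 233 of 234 bases are capitals, compared with 0 in the Sfi1 and Hjurp sequences. That chromosome 2 stretch alone held 487597 of the 550888 input reads of its window (88.5%). The mid arm sequence of chromosome 9 ends in a run of TG, and it held 99.9% of the window's input reads. Among satellite windows, 24 served to define the sequence, since they matched themselves best at a shift of 234 bp (15 windows) or 467 to 469 bp (9 windows), 1 and 2 times the repeat length known for the major satellite. The other satellite windows share at least 1 word of 24 bases with those, and 0 of 2395 windows taken at every 1000th position do. The 10 bases that recurred in most satellite windows were TTCTCATTTT, counted on both strands. They were present in 56 of the 58 satellite windows (96.6%) and in 4 of the 114 scattered windows, in none of the other kinds, and in 28953 of 2393973 windows with sequence on chromosomes 1 to 19 (1.21%).

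Windows dense in input were gathered at few places. Joined where the starts of neighbouring windows lay at most 5 kb apart, they made up 100 loci, of which 60 were single windows. The 10 largest loci held 205 windows (58.6%). Chromosome 1 held 93 windows, chromosome 11 held 84 and chromosome 9 held 38, and each of the other autosomes held at least 1. They lay within 1 Mb of the first sequenced base, the centromeric end, in 139 of 350 cases (39.7%), compared with 0.633% of the 1611773 windows with at least 10 reads in each input library. Of these 139 windows, 74 were the 1 locus over Sfi1, 38 held satellite, 16 were scattered windows and 11 lay in the 21-bp repeat. Neighbouring windows of a locus are thus counted singly. The Hjurp, Sp110 and Sp140, and AY036118 stretches had 0 windows near this end. Within 1 Mb of the other end lay 12 windows (3.43%, compared with 0.736%). A gap of at least 1000 undetermined bases was within 100 kb of 159 windows (45.4%, compared with 0.959%). The Sfi1 locus gave 74 of these as well, satellite windows 37, scattered windows 29, the 21-bp repeat 11 and the Sp110 and Sp140 stretches 8.

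Genes covered 246 of the windows (70.3%, compared with 47.9% of all windows with at least 10 input reads) and exons touched 141 (40.3%, compared with 12.6%). The windows with satellite (72.4% in genes and 51.7% in exons) and the stretches over Sfi1 (98.6% and 52.7%) and around Hjurp (94.4% and 67.6%) held most of these, while of the 114 scattered windows 47 lay in genes (41.2%) and 14 in exons (12.3%). They belonged to 80 of the 34653 genes of the annotation (GENCODE vM1), and 57 of these (71.2%, compared with 61.8% of all genes) were protein-coding. Of gene families listed as known for many copies, windows touched 2 of 3 Sp100, Sp110, Sp140 and Csprs genes and 2 of 3 Pisd genes. The Ugt1a genes were not in that list and were added to the count. All 9 of 9 were touched, but they overlap and share the same 7 or 8 windows. None of the annotated Speer (12), Amy (8), Mup (21), Defa (29), Dux (2), Vmn (435), Olfr (1243), Zfp (370), Skint (11), Pramel and Oog (9), rRNA (307) and snRNA, 7SK and SRP RNA (1652) genes was touched. These families were sought among annotated genes alone, so their sequence outside such genes is not covered. Rn18s-rs5, related to ribosomal RNA by its name, is the neighbour of AY036118 in the newer RefSeq gene table. Whether the windows of the AY036118 stretch hold ribosomal sequence themselves was not tested. Copies of words of 32 bases were sought on the assembled chromosomes, without unplaced contigs. A median of 13.9% of the words of a window had another exact copy, compared with 3.10% in every 1000th window. At least 50% had one in 67 of 348 windows (19.3%, compared with 11.5%), and 57 windows (16.4%, compared with 31.5%) had none. Whether the windows stand for copies that the assembly lacks cannot be read from these words.

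The density that chose the windows was also found in the IgG-IP libraries, which the rule did not use. The reads of IgG-IP reached 5 times their own mean in both groups in 312 of 350 windows (89.1%), whereas 0.0335% of all windows with at least 10 input reads did. For H4K5ac-ChIP this was the case in 150 windows (42.9%, compared with 0.0199%). The windows took up 1.07% of FC and 2.33% of CON input reads, 5.50% and 4.35% of IgG-IP reads, and 0.444% and 0.460% of H4K5ac-ChIP reads. At the median window, input held 230.5 FC and 186 CON reads, IgG-IP 111.5 and 115, and H4K5ac-ChIP 59 and 56. Divided by the mean of each library, these medians were 11.9 and 12.5 in input, 17.9 and 16.4 in IgG-IP, and 4.28 and 3.58 in H4K5ac-ChIP. H4K5ac-ChIP was thus the least dense of the precipitations in these windows, but still above its mean.

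**Figure D1:**
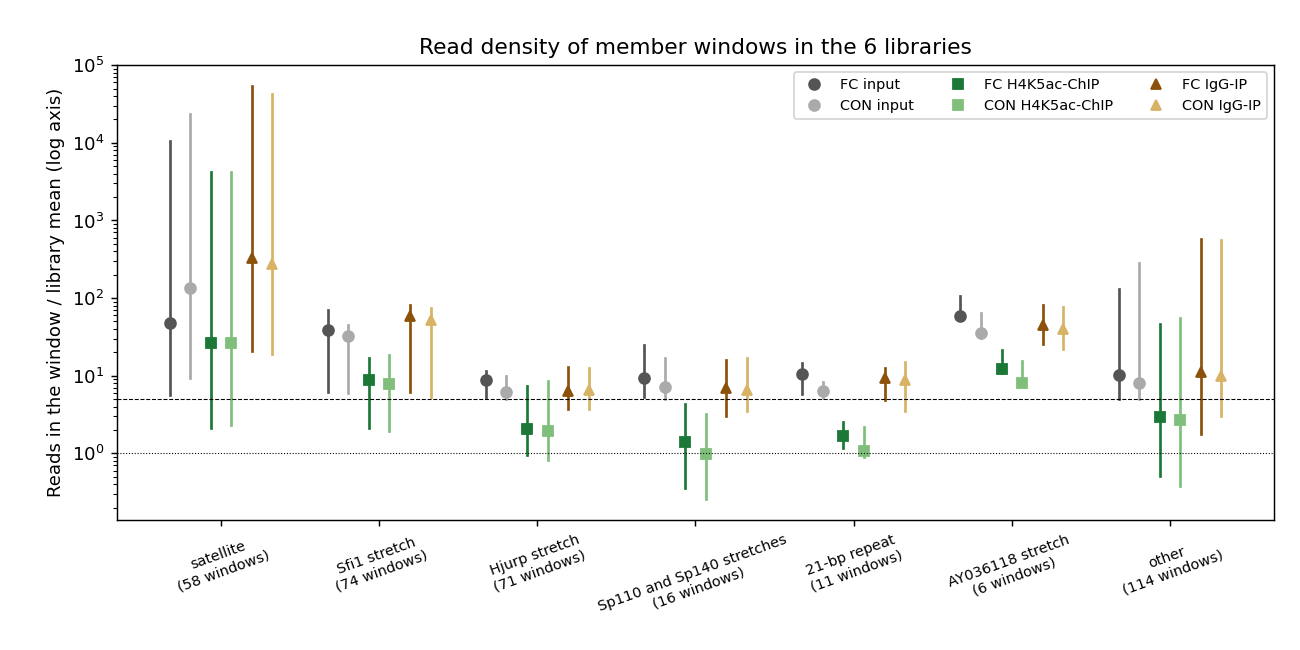
Read density of the windows dense in input, by kind of sequence; the y axis (log scale) gives reads per window divided by the mean of the library, markers are medians over windows and lines run from the lowest to the highest window, with dashes at 5 and dots at 1. Satellite windows had median densities of 47.8 (FC) and 135 (CON) in input, 26.1 and 26.5 in H4K5ac-ChIP and 329 and 273 in IgG-IP, and in each kind the median of H4K5ac-ChIP lay below those of input and IgG-IP.

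The log2 ratio of H4K5ac-ChIP over input, scaled to the reads of each library on chromosomes 1 to 19, had medians of -1.95 (FC) and -2.14 (CON) over these windows and of -0.18 and -0.10 over all windows with at least 10 input reads. H4K5ac-ChIP was at least 2-fold below input in both groups in 263 of 350 windows (75.1%), whereas 11.7% of all windows were. It was at or above input in both groups in 2 windows (0.571%, compared with 31% of all windows). High input, the denominator of this ratio, chose the windows, so these shares are descriptions and their cause was not tested. In bulk tissue, fewer cells with acetylated H4K5 and less acetylation per cell could not be told apart in any case. IgG-IP was at or above input in both groups in 193 windows (55.1%, compared with 17.2%) and at least 2-fold above in 25 (7.14%, compared with 0.419%), of which 23 held satellite sequence. The ratio of H4K5ac-ChIP over IgG-IP, of which neither part chose the windows, had a median log2 of -2.50 (FC) and -2.59 (CON), whereas it was 0.10 and 0.08 over all windows.

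Ratios of summed reads give weight to the deepest windows, of which the satellite held most reads, so the sums are given with and without it. Over all 350 windows the log2 ratio of summed H4K5ac-ChIP over input reads was -1.26 (95% interval -1.27 to -1.25) for FC and -2.34 (-2.35 to -2.33) for CON. Without the 58 satellite windows it was -1.95 (-1.97 to -1.93) and -1.96 (-1.98 to -1.93). IgG-IP over input was 2.37 in FC and 0.90 in CON over all windows, and 0.55 and 0.57 without the satellite. Its medians over all 350 windows, 0.17 and 0.42, had the other order. H4K5ac-ChIP over IgG-IP was -3.63 and -3.24, and -2.50 and -2.53 without the satellite. The groups thus lay apart in these sums with the satellite, while without it their intervals overlapped in each of the 3 ratios. The sums over all windows also depended on repeated reads and on the input. When repeats of a position and strand were dropped, H4K5ac-ChIP over input was -1.25 and -1.43 and IgG-IP over input 0.91 and 0.71, in the same order. With windows chosen on the group's own input and set against the input of the other group, these ratios were -2.35 and -1.20, and 1.23 and 2.03. The order of the groups then turned. That turn was set by the input libraries and is no independent check. Their summed log2 FC over CON was -1.13, compared with -0.05 in H4K5ac-ChIP and 0.34 in IgG-IP. The overlap without the satellite held for the sums and not for each kind of sequence. H4K5ac-ChIP over input was higher in CON than in FC in the Sfi1 and Hjurp stretches (-1.91 and -2.08, -1.36 and -1.59) and lower in the scattered windows (-2.09 and -1.75). IgG-IP over input likewise was higher in CON in the Hjurp stretch (0.10 and -0.32) and lower in the scattered windows (0.63 and 0.98), where the medians ran the other way (0.26 and 0.033). When repeats were left out of the Sfi1 windows, the order of the groups turned. H4K5ac-ChIP over input was then -1.74 in FC and -1.76 in CON, with overlapping intervals. IgG-IP over input there went from 0.54 (FC) and 0.67 (CON) to 0.83 and 0.75. For H4K5ac-ChIP over input the order stayed in the Hjurp stretch (-1.57 in FC, -1.36 in CON) and the scattered windows (-1.25 and -1.49).

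**Figure D2:**
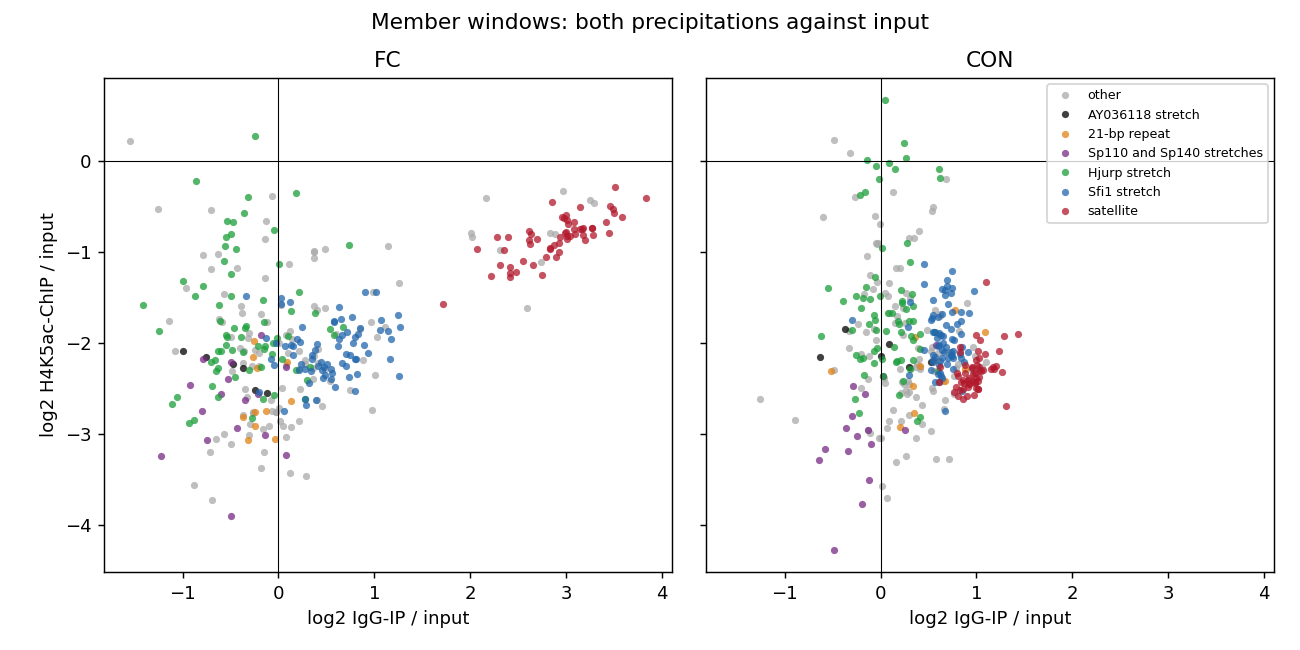
Each point is 1 window dense in input; the x axis gives the log2 ratio of IgG-IP over input and the y axis that of H4K5ac-ChIP over input, in FC (left) and CON (right), coloured by kind of sequence. Satellite windows lay at 1.72 to 3.83 (FC) and at 0.61 to 1.43 (CON) on the x axis, and 2 windows lay above 0 on the y axis in both groups.

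Satellite windows were found on 12 chromosomes, 31 of them on chromosome 9. The deepest locus of the series lay in the middle of chromosome 2, at chr2:98502001-98508000, over the predicted genes Gm10800 and Gm10801. Its window chr2:98507001-98508000 held 201619 FC and 349269 CON input reads, 57842 and 66123 H4K5ac-ChIP reads and 339135 and 296928 IgG-IP reads. At Gm10800 the log2 ratio of H4K5ac-ChIP over input was -1.23 in FC and -2.44 in CON. Relative to the mean of each library, IgG-IP was the deepest at Gm10800 in both groups, at 30886 and 24125 times, compared with 5696 and 13371 times in input. The long noncoding gene Gm16869, near the centromere of chromosome 9, was touched by 29 windows at chr9:3000001-3008000 and chr9:3015001-3039000, with density 57.7 and 206 times the mean in FC and CON input, 34.0 and 38.3 times in H4K5ac-ChIP and 521 and 406 times in IgG-IP. Near the centromere of chromosome 11, chr11:3000001-3005000, had 46.6 and 116 times the mean in input, 21.1 and 22.3 times in H4K5ac-ChIP and 278 and 224 times in IgG-IP. These 4 loci were, with a mixed locus at chr4:3007001-3019000, the 5 with the lowest H4K5ac-ChIP over IgG-IP among loci of at least 3 windows, with a mean log2 of both groups between -3.69 and -3.51.

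Over the 58 satellite windows, input held a median of 921.5 FC reads (110 to 201619) and 2000.5 CON reads (137 to 349269). The medians were 360.5 and 414 reads in H4K5ac-ChIP and 2052 and 1917 in IgG-IP. IgG-IP was at or above input in both groups in 58 of 58 (compared with 17.2% of all windows). H4K5ac-ChIP was at least 2-fold below input in both groups in 13 of 58 (22.4%, compared with 11.7%). The summed log2 ratio of H4K5ac-ChIP over input was -1.09 in FC and -2.39 in CON, and that of IgG-IP over input 2.67 and 0.93. The groups differed most in the input libraries, where FC over CON was -1.38 (-1.39 to -1.38) compared with -0.09 (-0.10 to -0.08) in H4K5ac-ChIP and 0.36 (0.35 to 0.36) in IgG-IP. H4K5ac-ChIP over IgG-IP, which leaves input out, was -3.77 and -3.32.

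In 30 of the satellite windows, satellite made up less than 50% of the bases, with a median of 13.8%, and a median of 62.6% of FC and 59.2% of CON input reads lay on it. In some of them most input reads lay elsewhere, and the lowest shares were 20.2% in FC and 20.3% in CON. The mid arm window chr9:35113001-35114000, with 131 satellite bases, held 18358 and 30710 input reads, 5719 and 6660 H4K5ac-ChIP reads and 30886 and 28579 IgG-IP reads. A window over an exon of Ank1, which encodes the red cell membrane protein ankyrin 1, had 68 satellite bases at chr8:24206001-24207000 and held 1073 and 2001 input reads, 410 and 428 H4K5ac-ChIP reads and 2080 and 1800 IgG-IP reads. Both show the order of the deepest window, with more CON than FC input reads and like numbers of H4K5ac-ChIP reads. The windows with little satellite had median log2 ratios of -0.86 and -2.29 for H4K5ac-ChIP over input and 2.63 and 0.94 for IgG-IP over input, compared with -0.73 and -2.41, and 3.05 and 1.00, for the 28 mostly of satellite.

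Satellite reads also stood apart in how they were mapped. Repeats, which are the reads beyond the first at a position and strand of a library, made up 92.8% to 98% of reads in satellite windows, and the mean mapping score was 23.5 to 24.7 of 100 at most. Over all reads of chromosomes 1 to 19 these were 11.5% to 17.9% and 71.2 to 75. In the stretch around Hjurp the mean score was 74.7 to 77.4, and 11.8% to 16.9% of reads were repeats. Over the stretch at Sfi1 these values were 68.4 to 71.5 and 15.5% to 34.9%. With 1 read kept per position and strand in the same windows, satellite H4K5ac-ChIP over input became 0.06 in FC and -0.79 in CON, as each position and strand can then hold 1 read at most.

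The stretch over Sfi1 held the most windows dense in input, 74 in 1 locus at chr11:3022001-3100000. Sfi1 encodes a centrin-binding protein of the centrosome and was touched by 63 windows. Drg1, which encodes a GTP-binding protein, was touched by 13 and Pisd-ps1, a transcript related to phosphatidylserine decarboxylase, by 5. Every one of the 73 windows of chr11:3027001-3100000 was dense in input. There density was 39.6 (FC) and 31.3 (CON) times the mean in input, 56.4 and 48.9 times in IgG-IP and 9.13 and 8.10 times in H4K5ac-ChIP. In the 32 windows beside this block, of which 1 was dense in input, density was 1.5 and 1.30 times in input, 1.61 and 1.48 times in IgG-IP and 0.992 and 0.997 times in H4K5ac-ChIP. All libraries thus stepped up at the same edges, though by different amounts.

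**Figure D3:**
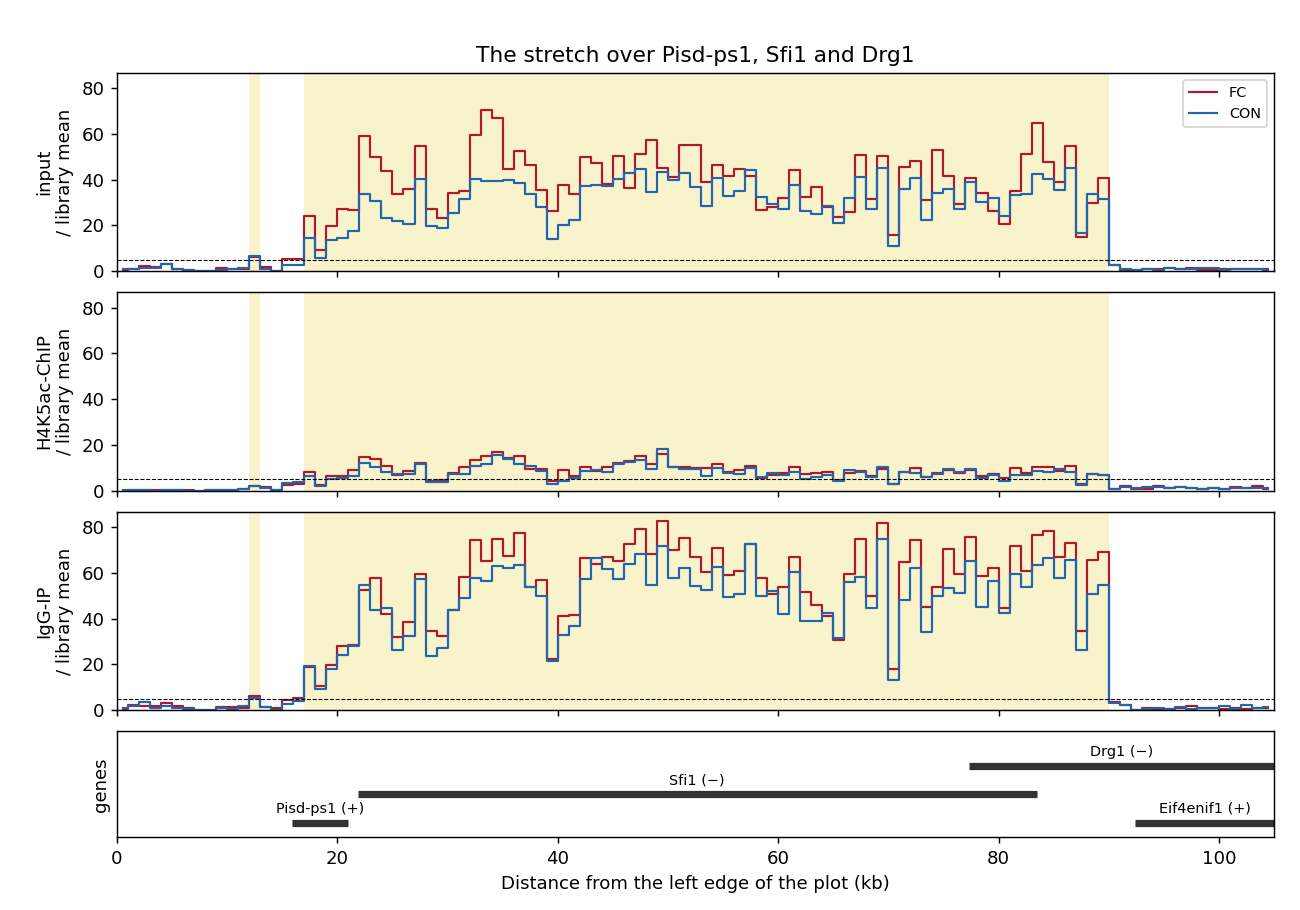
Reads per window divided by the mean of the library along the stretch over Pisd-ps1, Sfi1 and Drg1, in FC (red) and CON (blue), with windows dense in input shaded, the dashed line at 5 times the mean, and genes with their strand below; the x axis is in kb from the left edge. Over the block of 73 windows input and IgG-IP averaged 31.3 to 56.4 times the mean and H4K5ac-ChIP 8.10 to 9.13 times.

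The windows of this stretch held 118 to 1362 FC input reads (median 752.5) and 88 to 672 CON input reads (median 488.5). H4K5ac-ChIP held 29 to 231 FC reads (median 123) and 30 to 286 CON reads (median 122). IgG-IP held 38 to 514 (median 371) and 37 to 524 (median 366). In 74 of 74 windows H4K5ac-ChIP was at least 2-fold below input in both groups (compared with 11.7% of all windows), and in 67 IgG-IP was at or above it (90.5%, compared with 17.2%). The summed log2 ratio of H4K5ac-ChIP over input was -2.08 (-2.11 to -2.04) for FC and -1.91 (-1.94 to -1.88) for CON, and IgG-IP over input was 0.54 and 0.67. Of its genes, Sfi1 had -2.08 and -1.90 for H4K5ac-ChIP over input, Drg1 -2.23 and -2.22, and Pisd-ps1 -1.68 and -1.32. FC over CON was 0.34 in input, 0.18 in H4K5ac-ChIP and 0.22 in IgG-IP. A median of 13% of the words of 32 bases of a window had another copy on the assembled chromosomes. Of these windows, 2 shared at least 100 words of 24 bases with windows of Gm2420 on chromosome 5.

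In the stretch around Hjurp, H4K5ac-ChIP was higher over most of Hjurp and the start of Trpm8 than over the rest, while input and IgG-IP were not. It covered chr1:90108001-90207000, where 71 of 99 windows were dense in input. Density there was 7.70 and 5.75 times the mean in input, 6.08 and 6.11 times in IgG-IP and 2.67 and 2.42 times in H4K5ac-ChIP, compared with 1.36 and 1.17, 1.10 and 1.06, and 0.816 and 0.825 times in the 31 windows beside it. Of these 71 windows 45 (63.4%) had no word of 32 bases with another copy on the assembled chromosomes. The stretch holds the shared last exons of the Ugt1a genes, which encode enzymes that attach glucuronic acid to bilirubin and drugs, Heatr7b1, a gene of a HEAT repeat protein now named Mroh2a, Hjurp, which encodes the chaperone that brings the centromeric histone CENP-A to chromatin, and part of Trpm8, the channel for cold and menthol. The Ugt1a genes share their windows, so that Ugt1a6a and Ugt1a7c (8 windows) had the same log2 H4K5ac-ChIP over input of -2.05 and -1.97. Ugt1a1, Ugt1a2, Ugt1a5, Ugt1a6b, Ugt1a8, Ugt1a9, Ugt1a10 and the transcript RP23-324B17.1 on the other strand (7 windows) had -2.19 and -1.89.

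The 13 windows over Hjurp held 54 to 102 H4K5ac-ChIP reads in FC (median 75) and 53 to 132 in CON (median 83). Over the 27 windows of Heatr7b1 outside Hjurp these were 16 to 55 (median 28) and 14 to 51 (median 28). Over the 19 windows of the Trpm8 side that were dense in input they were 13 to 47 (median 23) and 15 to 40 (median 25), and over the 12 windows left of Heatr7b1 22 to 49 (median 26.5) and 13 to 34 (median 29). Among windows dense in input, the ranges of Hjurp and Heatr7b1 thus met at 54 to 55 reads in FC and did not overlap in CON. These windows of Hjurp also lay above those of the other parts. Windows inside Hjurp between chr1:90165000 and chr1:90170001 missed the rule and are not in these values. They had H4K5ac-ChIP at 0.72 to 4.06 (FC) and 0.64 to 4.86 (CON) times the mean, in part as low as over Heatr7b1. The lowest had input at 0.67 and 0.47 times the mean. In input, Hjurp held a median of 177 FC and 83 CON reads, compared with 181 and 95 for Heatr7b1, 132 and 89 for Trpm8 and 165.5 and 107 left of Heatr7b1. In IgG-IP the medians were 42 and 42 for Hjurp, 37 and 43 for Heatr7b1, 40 and 46 for Trpm8 and 51 and 56.5 left of Heatr7b1.

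As density, H4K5ac-ChIP over the windows of Hjurp dense in input was 5.67 and 5.41 times the mean. Over those of the other 3 parts it was 1.96 to 2.16 times (FC) and 1.69 to 1.75 times (CON). On the log2 scale, H4K5ac-ChIP over input was -0.62 (-0.73 to -0.51) for FC and -0.08 (-0.20 to 0.04) for CON over Hjurp, and -2.07 (-2.18 to -1.96) and -1.79 (-1.91 to -1.67) over Heatr7b1. It was -1.83 and -1.81 over Trpm8 and -1.96 and -2.09 left of Heatr7b1. H4K5ac-ChIP over IgG-IP was -0.23 in both groups over Hjurp, while the other parts had -1.47 to -1.97 (FC) and -1.79 to -2.28 (CON). With 1 read per position and strand in the same windows, H4K5ac-ChIP over input at Hjurp was -0.63 and -0.12, and with reads of a score of at least 50 alone it was -0.72 and -0.16.

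The starts of Hjurp (minus strand, 90174208) and Trpm8 (plus strand, 90174236) lie in the same window, chr1:90174001-90175000, which missed the rule by its 69 CON input reads. It held 105 and 69 input reads, 34 and 35 IgG-IP reads and 178 and 184 H4K5ac-ChIP reads, a log2 ratio over input of 1.28 and 1.38. H4K5ac-ChIP was 12.9 and 11.8 times its mean there. The next 2 windows, at the 5′ end of Trpm8, also missed the rule, with input at 4.87 and 4.65 and at 4.92 and 5.19 times the mean. Their H4K5ac-ChIP, at 5.87 and 6.72 and at 4.57 and 4.03 times, was near that over Hjurp, and they are not in the values given for Trpm8. On the side of Hjurp, chr1:90173001-90174000 was dense in input and was 1 of the 2 such windows with H4K5ac-ChIP at or above input in both groups, with 101 and 132 H4K5ac-ChIP reads, 120 and 81 input reads and 32 and 39 IgG-IP reads. The other, chr12:70755001-70756000 in an intron of Sos2, a Ras exchange factor, had 83 and 94 H4K5ac-ChIP reads, 102 and 78 input reads and 11 and 26 IgG-IP reads. The 54 windows dense in input and without satellite that lay within 1 kb of a protein-coding start, in 10 loci, had median log2 H4K5ac-ChIP over input of -2.03 and -1.89, and the 238 farther windows -2.10 and -2.08.

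**Figure D4:**
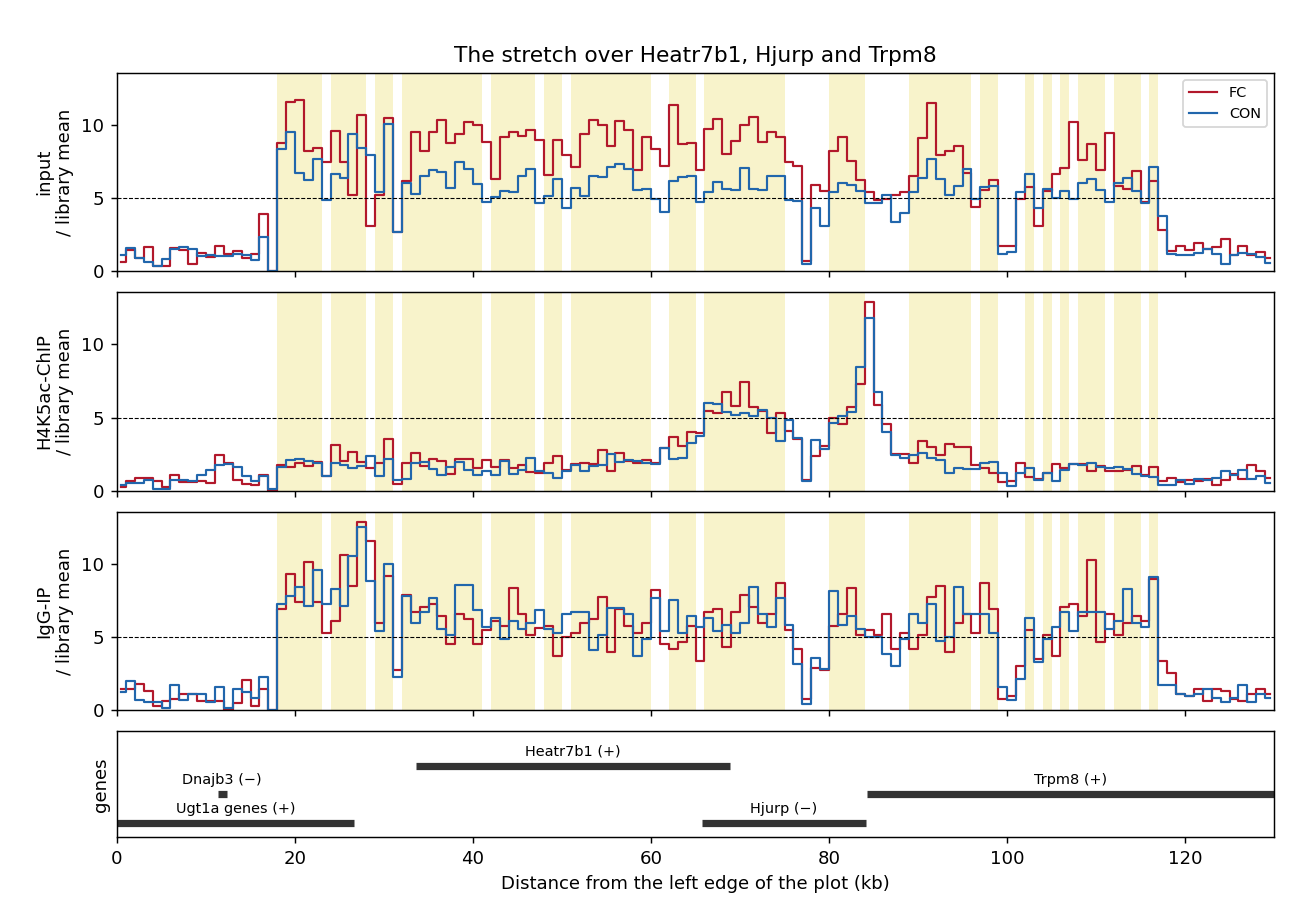
Reads per window divided by the mean of the library along the stretch over Heatr7b1, Hjurp and Trpm8, drawn as for Sfi1, with FC in red, CON in blue and windows dense in input shaded; the x axis is in kb from the left edge. H4K5ac-ChIP rose to 12.9 (FC) and 11.8 (CON) times its mean at the shared start of Hjurp and Trpm8, where IgG-IP was 5.46 and 4.99 times its mean.

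The 16 windows of the Sp110 and Sp140 stretches lay over these genes, C130026I21Rik and A530032D15Rik, and 4 of them over the pseudogene Gm16026 alone. Sp110 and Sp140 encode relatives of the nuclear body protein Sp100. Input held 104 to 474 FC reads (median 181.5) and 75 to 250 CON reads (median 106), IgG-IP medians of 43 and 45.5, and H4K5ac-ChIP medians of 19.5 and 15.5, which are 1.41 and 0.991 times the mean. Sp110 lay higher, at 3.09 and 2.32 times. Summed over these windows, H4K5ac-ChIP over input was -2.65 (-2.81 to -2.49) and -2.86 (-3.04 to -2.67), the lowest sums of the named kinds in both groups. By gene it was -2.57 and -2.53 at Sp110, -2.20 and -3.31 at Sp140 and -2.72 and -2.91 at C130026I21Rik. In 16 of 16 windows at least 50% of the words of 32 bases were also found in unplaced contigs of the assembly, compared with 5.76% of every 1000th window.

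The 11 windows of the 21-bp repeat lay on chromosomes 4, 16 and 17 near the centromere, in no gene. They held 111 to 281 FC input reads (median 205) and 77 to 123 CON input reads (median 93), with medians of 59 and 62 in IgG-IP and 23 and 17 in H4K5ac-ChIP. H4K5ac-ChIP over input was -2.58 and -2.23 and IgG-IP over input -0.16 and 0.53, where the FC value turned to 0.033 with 1 read per position and strand. The 6 windows of the stretch at chr17:39980001-39986000, of which 1 touched AY036118, held 1013 to 2064 FC input reads and 453 to 954 CON input reads, 161 to 513 and 155 to 531 IgG-IP reads, and 148 to 298 and 118 to 244 H4K5ac-ChIP reads. Their GC content was the highest, with a median of 62.9%, and H4K5ac-ChIP over input was -2.31 and -2.10. Of these windows 2 shared at least 100 words of 24 bases with a window on chromosome 6. In the newer RefSeq gene table the neighbour of AY036118 is Rn18s-rs5, whose name marks it as related to ribosomal RNA.

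Among the scattered windows, 7 lay in introns of Brd3 at chr2:27351001-27358000. Brd3 encodes a bromodomain protein that binds acetylated histones. Density there was 21.3 and 14.7 times the mean in input, 19.1 and 15.8 times in IgG-IP and 3.42 and 2.61 times in H4K5ac-ChIP, and H4K5ac-ChIP over input was -2.60 and -2.46. The Brd3 windows shared at least 100 words of 24 bases with windows on chromosomes 5 and 9, the latter in Osbpl10, an oxysterol-binding protein gene. Shared words also tied Pisd-ps1 to Pisd-ps2 on chromosome 17, whose 3 windows had -1.11 and -0.69, and a window in Smo, the Hedgehog pathway transducer, to one on chromosome 13, together at -2.24 and -2.0. Windows at the ends of chromosomes 1 and 19 were tied likewise and had -0.88 and -0.41. A read of such shared sequence was placed at 1 of the copies, so that the values of tied windows are not independent.

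After the 4 windows over Hjurp next to its start, the loci of at least 3 windows with the highest H4K5ac-ChIP over IgG-IP were chr13:120276001-120284000 over 3110070M22Rik and Gm7120, Pisd-ps2, the left part of the Hjurp stretch and chr8:19920001-19929000 over 2610005L07Rik and AC152164.1, with mean log2 values of both groups of -0.91, -1.15, -1.37 and -1.60. This left part, chr1:90108001-90165000, also held windows over Hjurp. Its parts outside Hjurp had -1.97 and -1.47 (FC) and -2.28 and -1.79 (CON). At the 4 windows over Hjurp next to its start the mean was -0.16. Each was below 0, so that in none of these loci did H4K5ac-ChIP exceed IgG-IP. Of the other large loci, chr16:3232001-3242000 had -2.67 and -2.27 for H4K5ac-ChIP over input, and chr18:3004001-3011000 had -2.13 and -2.37. Snord37, a small nucleolar RNA gene in Eef2, the gene of a translation elongation factor, lay in 1 window with -1.89 and -1.18.

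Of the scattered windows, 15 on 12 chromosomes had a log2 FC over CON input ratio no higher than the highest of the satellite windows (-0.52), from -2.37 to -0.54. They were set apart by that ratio, so this is a description. Their median log2 IgG-IP over input was 2.31 in FC and 0.79 in CON and that of H4K5ac-ChIP over input -0.93 and -2.28, near those of the satellite, and 4 of the 15 held a satellite word of 18 bases, compared with 1 of 2395 windows taken at every 1000th position. The other 99 had -0.07 and 0.21, and -2.11 and -2.09, and 0 held such a word.

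Between the groups, windows dense in input rarely differed in H4K5ac-ChIP. FC had at least 2 times the CON density in 13 of 350 windows (3.71%, compared with 7.55% of all windows) and at most 1/2 of it in 0 (compared with 8.52%), which are lower shares than among all windows, most of which held fewer reads. The 13 windows held 16 to 124 FC and 4 to 69 CON reads, and 4 of them lay in the Sp110 and Sp140 stretches and 4 in the Hjurp stretch. Over all windows the summed log2 ratio of FC over CON was -0.05 (-0.06 to -0.04) in H4K5ac-ChIP and the median 0.13, so that the sign depended on the weight of the satellite. Without the satellite the sums were 0.17 (0.14 to 0.20) in H4K5ac-ChIP, 0.16 (0.15 to 0.17) in input and 0.14 (0.13 to 0.16) in IgG-IP. The medians over these 292 windows lay farther apart, at 0.23, 0.35 and 0.15, and so did the sums by kind, such as 0.42 in input and -0.0013 in IgG-IP over the Hjurp stretch and 0.74 and 0.24 over the AY036118 stretch, while the scattered windows had -0.27 in input and 0.087 in IgG-IP. In input the median of the scattered windows was 0.28, of opposite sign to their sum.

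The FC over CON ratio of input moved with the base composition of the windows. Spearman's rho with GC content was 0.82 in input, 0.32 in H4K5ac-ChIP and -0.21 in IgG-IP over the 350 windows, 0.77, 0.15 and -0.05 over the 292 without satellite, and 0.59, 0.13 and -0.03 over all windows with at least 10 input reads. The windows share their libraries, and neighbours share sequence, so no p is given. Satellite windows had a median GC content of 36.0%, and the 227933 windows of the genome with 33% to 38% GC had a median FC over CON input of -0.52, in the direction of the satellite (median -1.65) but smaller. In those windows IgG-IP over input was 0.49 in FC and -0.03 in CON, and H4K5ac-ChIP over input -0.28 and -0.67. The part of GC content in the values of the satellite was not tested.

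**Figure D5:**
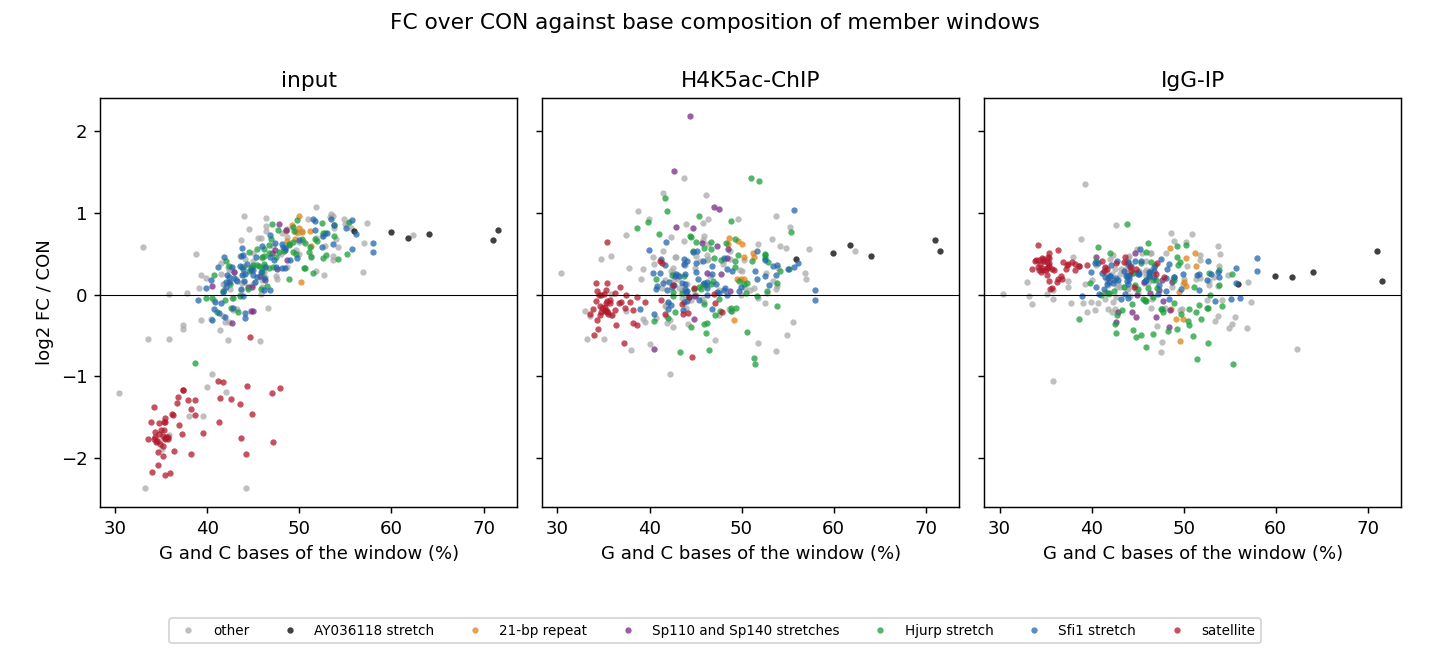
FC over CON as a log2 ratio of library-scaled reads (y axis) against the GC content of the window in percent (x axis) for input, H4K5ac-ChIP and IgG-IP; each point is 1 of the 350 windows, coloured by kind of sequence. In input the satellite windows lay between -2.21 and -0.52 and the ratio followed GC content (rho 0.82), in H4K5ac-ChIP (0.32) and IgG-IP (-0.21) less so.

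Near the threshold, the 3 windows just inside were chr1:166357001-166358000 with 97 FC and 93 CON input reads, chr1:85247001-85248000 in C130026I21Rik with 104 and 75, and chr1:90132001-90133000 in Heatr7b1 with 122 and 75. Their H4K5ac-ChIP reads were 38 and 53, 16 and 4, and 22 and 17. The 3 just outside were chr12:20237001-20238000 with 126 and 74, chr1:90195001-90196000 in Trpm8 with 128 and 74, and chr13:120278001-120279000 with 95 and 74. Their H4K5ac-ChIP reads were 10 and 6, 25 and 10, and 39 and 55, so that the H4K5ac-ChIP reads of both sides overlapped. IgG-IP held 124 and 55 reads in the first window inside, 19 and 25 and 38 and 44 in the other two, and 17 to 23 (FC) and 37 to 40 (CON) outside.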

How the data were processed

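The deposited files list 1 aligned SOLiD read per line with its position, strand and a mapping-quality score, given by the authors' mapping and running from 4 to 100. Per the methods, the authors aligned colour-space reads to mm9 with Bioscope v1.2.1, allowing up to 6 colour mismatches and reporting reads with up to 10 mappings. Each read name occurs once in a file. Aligned lengths were 25 to 50 bp, and 0 reads ran past a chromosome end. Reads were counted by midpoint in windows of 1000 bp from position 0 of chromosomes 1 to 19 in Python 3.11.15 (numba 0.67.0, NumPy 2.4.6, with intervals by SciPy 1.17.1). The choice of windows and the summed ratio were checked on simulated counts per window. The chromosome 1 to 19 totals, 14023183 to 44394551 reads, scaled the libraries. All windows for comparison had at least 10 reads in each input. Copies were exact words of 32 bases on chromosomes 1 to 19, X and Y of NCBIM37, counted on both strands. Words found in unplaced contigs were counted apart. Satellite windows came from self-matches of at least 60% identity at shifts up to 500 bp and words of 24 bases. Intervals were exact at 95%. Drawing used matplotlib 3.10.9.

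The windows, gene lists and alternatives were chosen with earlier results of these data known, and the kinds of sequence after the values were seen. Loci were named if among the 10 with most windows or the 5 highest or lowest in H4K5ac-ChIP over IgG-IP with at least 3 windows, and genes if among the 20 touched by most windows, in the listed families, or Sfi1 or Gm10800. Other genes were named after their values were seen. Alternatives were 10 or 3 times the mean, 1 read per position and strand, a score of at least 50, windows shifted by 500 bp, scaling by reads outside the windows, windows chosen on 1 input set against the input of the other group, and leaving out the Sfi1 locus. Leaving out the deepest locus, taking medians, and refiltering reads within the kinds of sequence were chosen after seeing the data. The reads of a library were not split by animal, and the precision rests on counts alone.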

Additional observations from a re-analysis of the deposited data

How the results depend on the processing

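The number of windows was 167 at 10 times the mean, 650 at 3 times and 232 with a score of at least 50, and stayed between 276 and 347 under the other alternatives, with 294 of 301 windows shared under 1 read per position and strand and 224 of 232 under the score. The percent of windows with H4K5ac-ChIP at least 2-fold below input was 81.0 with the score and 68.5 without the Sfi1 locus, and 71.5 to 75.9 otherwise.

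The summed log2 H4K5ac-ChIP over input was, in FC and CON, -1.24 and -2.36 at 10 times the mean, -1.27 and -2.31 at 3 times, -1.25 and -1.43 with 1 read per position and strand, -1.57 and -2.27 with the score, -1.27 and -2.37 scaled by reads outside the windows, -1.18 and -2.36 without the Sfi1 locus, -2.35 and -1.20 with windows chosen on the group's own input alone and set against the input of the other group, -1.43 and -2.20 without the deepest locus, and -1.95 and -2.14 as medians. IgG-IP over input was, in the same order, 2.44 and 0.91, 2.31 and 0.89, 0.91 and 0.71, 1.93 and 0.87, 2.44 and 0.93, 2.5 and 0.91, 1.23 and 2.03, 1.98 and 0.88, and 0.17 and 0.42. Under that double change of windows and input, the larger value changed group, a turn set by the difference between the input libraries. For IgG-IP over input the larger value also changed group as a median. FC over CON H4K5ac-ChIP turned from -0.05 to 0.20 with 1 read per position and strand and to 0.13 as a median, and was -0.015 with the score, -0.065 without the Sfi1 locus and -0.012 without the deepest locus.

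When repeated reads were dropped from the same windows, the FC ratio of H4K5ac-ChIP over input turned to 0.065 in the satellite, and IgG-IP over input in FC to 0.033 in the 21-bp repeat and 0.13 in the AY036118 stretch. With the score, the latter turned to -0.037 in CON. Dropping repeats also changed which group had the higher value in the Sfi1 stretch, for both ratios. In the AY036118 stretch it did so for H4K5ac-ChIP over input (-1.71 in FC and -1.83 in CON). Apart from the limit of 1 read per position, the cause was not tested. No paired analysis was possible because each group and antibody has 1 library. Windows of few reads, such as those of H4K5ac-ChIP over Sp140, are limited by counting error, and differences between animals cannot be seen.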

Other observations

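The sex chromosomes were outside the rule. At the same cutoffs in both input libraries, 81 windows of chromosome X held 21643 FC and 23378 CON input reads, 5231 and 5707 H4K5ac-ChIP reads and 17350 and 16849 IgG-IP reads. On chromosome Y, 111 windows held 58836 and 51971 input reads, 8654 and 7373 H4K5ac-ChIP reads and 33144 and 30618 IgG-IP reads.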
